A study of Mus musculus with 1615 samples.

Results

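Integrins and laminin receptors are described here in single cells of mouse colon. The set holds 10 genes, chosen by symbol from the 46517 gene rows of the count table: the integrin subunits Itga1, Itga3, Itga5, Itga7, Itga8, Itga9, Itgav and Itgb1, and the laminin receptors Bcam and Mcam. All 10 were found by their Ensembl identifier. The series holds 1615 Smart-Seq2 libraries, each of 1 sorted cell, from 11 mice and 13 plates. The line ACTA2GFP:CSPG4dsRED, which carries an Acta2 and a Cspg4 reporter, gave 3 mice: the females 20GG79:1 (359 cells) and 20GG95:3 (505 cells) and the male 20GG79:6 (242 cells). A further 8 mice, all male, carried ACTA2GFP (19CB34:7 and 19CB38:5), CSPG4dsRED (19CB27:3), PDGFRaH2bGFP (18CB109:10 and 18CB39:3) or PDGFRbGFP (18CB155:7, 19CB4:5 and a mouse of 199 cells, the most of the 8). All mice were labelled 8 to 30 weeks old, whereas the series text speaks of adult males of a narrower age range. The 2 mice behind every main test among mural classes are labelled female. The labels name no treatment. The tissue label is colon, whereas the protocol text names the heart. Which fluorescence gates were used is not given in the sources used here, so the cells of a line are those its reporter and the sort let through, and shares of cell types are not compared.

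Integrins are cell surface receptors made of an alpha and a beta subunit that span the membrane and tie the extracellular matrix to the actin cytoskeleton. The beta subunit Itgb1 can pair with each of the 7 alpha subunits in the set, and the alpha subunit largely sets the ligand. Bcam and Mcam belong to the immunoglobulin superfamily and bind laminins, the main glycoproteins of the basement membrane that surrounds smooth muscle cells, pericytes and vessel endothelium. In the gut wall, smooth muscle of the muscle layers and of the vessels transmits force through such contacts.

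Cells were clustered without the 10 genes and clusters were named from marker genes, so every class is written as "-like". Of 19 clusters, 17 were named, which gave 486 visceral smooth muscle-like, 106 vascular smooth muscle-like, 165 pericyte-like, 217 fibroblast-like, 288 blood endothelium-like, 75 lymphatic endothelium-like, 43 glia-like, 27 immune-like and 61 epithelium-like cells, and left 147 cells unnamed. Levels are counts summed over the cells of a class in a mouse and divided by the gene counts of that sum, given as CPM, which scales every sum to the same total, for mice with at least 5 cells of the class. Cardiomyocyte markers summed to at most 39.7 CPM in these sums. Median gene counts per cell ran from 118243 in pericyte-like to 278323 in fibroblast-like cells. Visceral and vascular smooth muscle-like cells came from the same 2 females, apart from 2 visceral cells of 20GG79:6. Cells of 1 mouse are not replicates. Each p-value compares sums of few mice, with a spread that the test borrows in part from the pool of all genes. A small p-value is therefore no measure of the spread between those mice. The wells hold PCR reads without molecular identifiers, so exact intervals cover counting error only.

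The promoters of Bcam and Mcam are shown because these genes had the same order in the classes tested below: both were lower in visceral than in vascular smooth muscle-like cells, and lower in lymphatic than in blood endothelium-like cells. The sequences are RefSeq's for GRCm38.p6, from 250 bases before the annotated start to 20 after it, 5′ to 3′ on the gene's strand, at chr7:19770513-19770782 (minus strand) for Bcam and chr9:44134408-44134677 (plus strand) for Mcam. Capitals mark GGGCGG, the GC box bound by Sp factors, on either strand.
Bcam: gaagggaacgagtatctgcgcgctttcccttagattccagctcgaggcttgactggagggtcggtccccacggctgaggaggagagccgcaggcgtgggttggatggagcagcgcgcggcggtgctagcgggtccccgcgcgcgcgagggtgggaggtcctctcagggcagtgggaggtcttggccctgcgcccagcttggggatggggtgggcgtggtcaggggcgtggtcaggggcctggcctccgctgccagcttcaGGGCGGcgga
Mcam: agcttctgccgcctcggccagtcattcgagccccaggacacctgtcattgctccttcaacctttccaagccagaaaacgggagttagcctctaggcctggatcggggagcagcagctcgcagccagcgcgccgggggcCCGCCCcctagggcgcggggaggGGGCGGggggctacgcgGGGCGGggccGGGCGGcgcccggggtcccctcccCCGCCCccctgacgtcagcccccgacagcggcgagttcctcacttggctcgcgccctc
Bcam holds 1 such match and Mcam 5. RefSeq windows were at hand for 9 of the 10 genes, not for Itga7. Over the full windows of 300 bases, 6 of the 9 genes hold GGGCGG (Itga3, Itga5, Itgav, Itgb1, Bcam and Mcam), against 35.7% of 32851 windows. The CArG box, which serum response factor binds in smooth muscle genes, was found in 0 of 9 genes and in 1.63% of all windows, and TGGGAA, the core bound by RBPJ, in 0 of 9 and in 25.6%. Both strands were searched. A match or its absence describes these letters in this window. RefSeq's starts differ from the gene spans given below. The Bcam window lies wholly inside the span of Bcam, and the Mcam window lies mostly inside that of Mcam. The only Itga9 window, counted among the 9, starts at 118711442, far inside a gene that starts at 118606690. All members but Itga3 and Itgb1 overlap another annotated gene, among them antisense genes at Bcam (Gm26600), Mcam (Gm10687), Itga8, Itga9 and Itga1; Smart-Seq2 reads carry no strand, so reads of such pairs cannot be told apart.

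The 2 receptors of the immunoglobulin superfamily had their highest levels in cells of the vessel wall. Bcam (chromosome 7, 19756131 to 19771016, minus strand), which binds the laminin chain encoded by Lama5, was at 1702 CPM in the vascular smooth muscle-like cells of 20GG79:1 and at 2366 CPM in those of 20GG95:3. In pericyte-like cells it was at 853 CPM in 20GG79:1, 1410 CPM in 20GG79:6 and 700 CPM in 20GG95:3, and in blood endothelium-like cells of 5 mice between 1090 and 1801 CPM, with a median of 1156 CPM. These 3 classes overlap in part, since the highest blood endothelium-like value lies above the lower vascular one. Visceral smooth muscle-like cells had 40.8 CPM in 20GG79:1 and 157 CPM in 20GG95:3, and fibroblast-like cells had 7.38 to 25.1 CPM in 3 mice. Lymphatic endothelium-like cells stood at 7.38 to 26 CPM in 4 mice, far under the blood endothelium-like range. After each cell was thinned to 45000 gene counts, a Bcam count was found in 100% of the 106 vascular smooth muscle-like cells (exact 95% interval 96.6 to 100%), in 92.0% of blood endothelium-like, 89.7% of pericyte-like, 33.9% of visceral smooth muscle-like and 25.7% of fibroblast-like cells.

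Mcam (chromosome 9, 44134469 to 44142727, plus strand), known as CD146 and a marker of mural and endothelial cells, binds the laminin chain encoded by Lama4. It was at 1143 CPM in the vascular smooth muscle-like cells of 20GG79:1 and 2009 CPM in those of 20GG95:3. Pericyte-like cells had 788, 1611 and 1303 CPM in 20GG79:1, 20GG79:6 and 20GG95:3, within the vascular range or below it. Glia-like cells came next with 1071 CPM in 19CB27:3 and 1105 CPM in 20GG79:6, where 94.7% of 38 thinned cells held a count, beside 84.8% of pericyte-like cells. The glia-like values lie within the pericyte-like range. Blood endothelium-like cells had 327 to 750 CPM with a median of 692 CPM, and visceral smooth muscle-like cells 285 and 604 CPM in 20GG79:1 and 20GG95:3. Fibroblast-like cells, at 6.77 to 37.6 CPM, and lymphatic endothelium-like cells, at 5.15 to 97.9 CPM, stood below all of these.

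Among alpha subunits, Itga7 (chromosome 10, 128933818 to 128958282, plus strand), the laminin-binding subunit of muscle, followed the mural cells of vessels. It was at 1133 CPM and 1292 CPM in the vascular smooth muscle-like cells of 20GG79:1 and 20GG95:3, and at 870, 1887 and 702 CPM in the pericyte-like cells of 20GG79:1, 20GG79:6 and 20GG95:3. Over all mice the vascular values lie inside the pericyte-like range, while within each female the vascular value is the higher. Visceral smooth muscle-like cells had 61.9 and 107 CPM. Blood endothelium-like cells had 0 to 4.26 CPM in 5 mice and lymphatic endothelium-like cells 0 to 1.68 CPM in 4, close to the limit of detection. Epithelium-like cells reached 94.4 CPM in 18CB155:7 and 99.4 CPM in 19CB4:5 and had 4.99 to 9.10 CPM in the other 3 mice. The epithelium-like sums of 18CB155:7 (5 cells) and 19CB4:5 (6 cells) also held 9 fibroblast markers, at 6288 and 11577 CPM. That of 20GG79:6 (6 cells) held them at 10747 CPM, with Itga7 at 4.99 CPM. Fibroblast-like sums held Itga7 at 0.615 to 18.5 CPM. The part of cells of other classes in these Itga7 values was not tested.

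**Figure D1:**
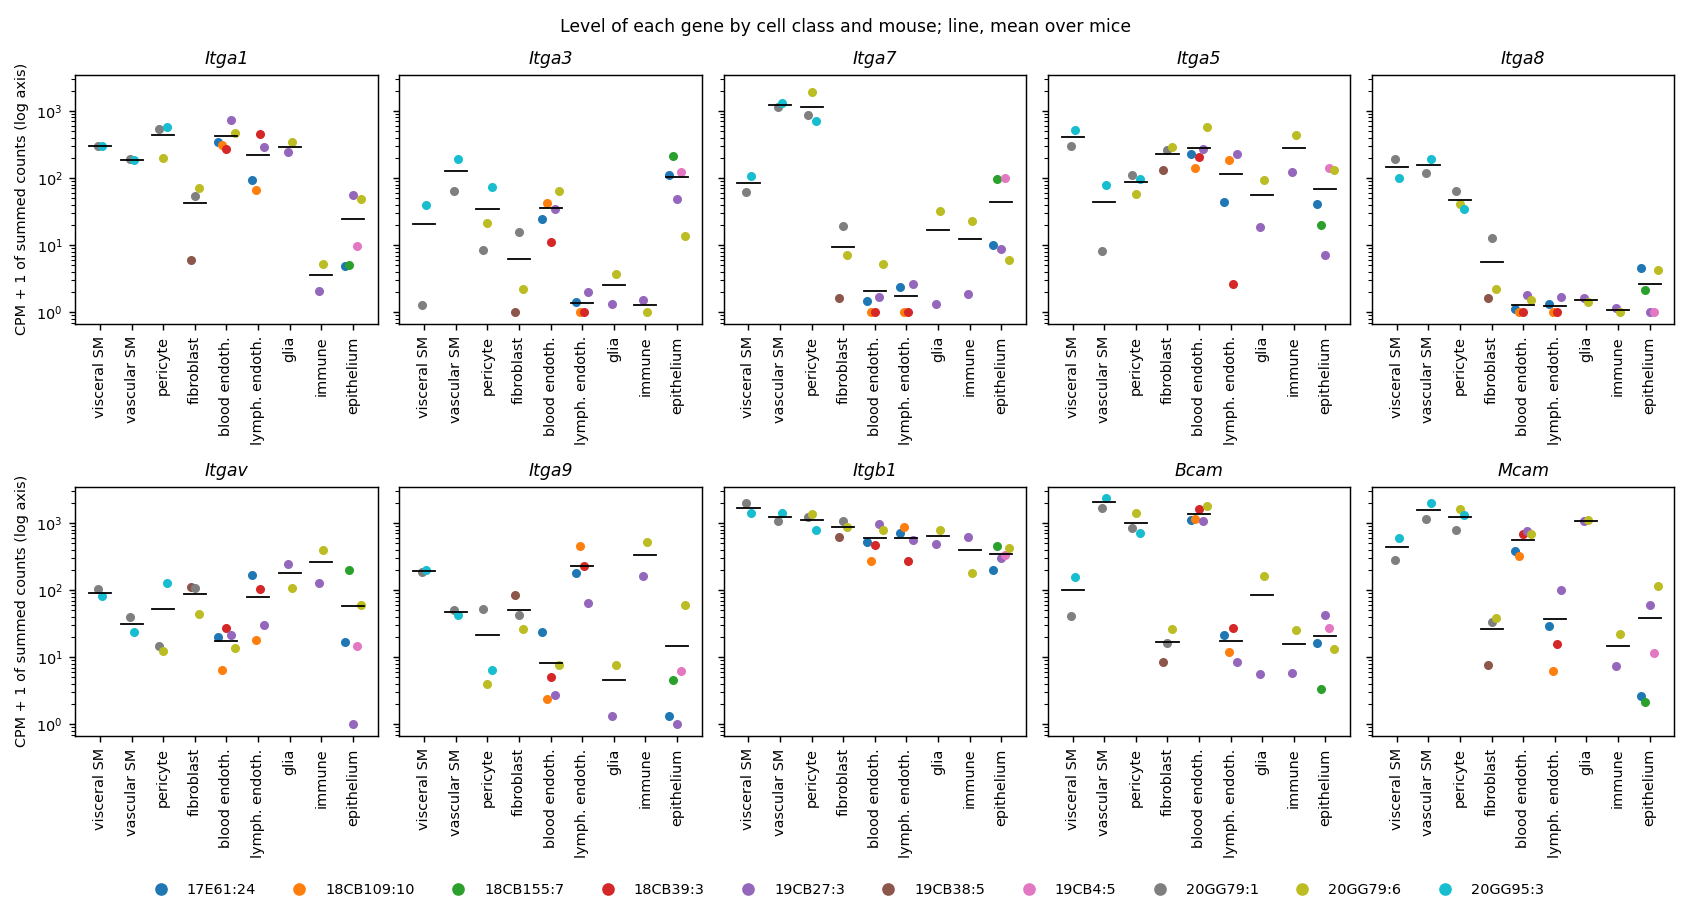
Level of each gene as CPM + 1 of the summed counts (log axis) for each cell class, with a point per mouse coloured by mouse and a line at the mean over mice. Bcam, Mcam and Itga7 have their highest means in vascular smooth muscle-like cells, while the class means of Itgb1 run from 341 to 1683 CPM.

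Itga3 (chromosome 11, 95044474 to 95076801, minus strand) is another laminin-binding alpha subunit of the set and is best known in epithelia. Epithelium-like cells had 12.5 to 213 CPM in 5 mice with a median of 110 CPM, and vascular smooth muscle-like cells 62.7 and 191 CPM, so the 2 leading classes overlapped. The vascular level rested on few cells: after thinning, 31.1% of vascular smooth muscle-like cells had an Itga3 count. Visceral smooth muscle-like cells of 20GG79:1 had 0.267 CPM, whereas those of 20GG95:3 had 38.7 CPM, the widest ratio between these mice for any of the 10 genes in this class. Pericyte-like cells had 7.40, 20.3 and 73.3 CPM in 20GG79:1, 20GG79:6 and 20GG95:3. The plates of 20GG95:3 differed too, with 3.50 CPM in 34 pericyte-like cells of the smaller plate (186 cells) and 125 CPM in 57 of the larger (319 cells).

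Itga1 (chromosome 13, 114953096 to 115101964, minus strand), a collagen- and laminin-binding subunit, was spread more evenly over muscle, mural and endothelial classes. Pericyte-like cells had 534, 198 and 576 CPM in 20GG79:1, 20GG79:6 and 20GG95:3, blood endothelium-like cells 267 to 732 CPM with a median of 349 CPM, and visceral smooth muscle-like cells 299 and 303 CPM. These ranges overlap. Vascular smooth muscle-like cells had 188 and 182 CPM, and glia-like cells 240 and 345 CPM in 19CB27:3 and 20GG79:6. Fibroblast-like cells had 4.92 to 69.2 CPM and immune-like cells 1.05 and 4.25 CPM, below every value of the muscle, mural and endothelial classes except the lowest lymphatic one (64.4 CPM). The locus overlaps Pelo and Gm49395 on the same strand and Gm10734 on the other, and reads of such overlaps cannot be parted here.

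Itga5 (chromosome 15, 103344286 to 103366763, minus strand), the fibronectin-binding subunit, had a pattern unlike that of Itga7. It was at 301 and 511 CPM in the visceral smooth muscle-like cells of 20GG79:1 and 20GG95:3 and at 7.08 and 79.1 CPM in the vascular smooth muscle-like cells of the same mice. Blood endothelium-like cells had 139 to 569 CPM with a median of 224 CPM, and fibroblast-like cells 129 to 290 CPM with a median of 264 CPM. The blood endothelium-like range spans the visceral one and overlaps the fibroblast-like one, while the fibroblast-like values stay below both visceral ones. The vascular class was lowest of the 9 by its mean (43.1 ± 50.9 CPM, SD, n = 2). Pericyte-like cells stood between the vascular and visceral classes by their mean, at 109.01, 56.7 and 95.6 CPM in 20GG79:1, 20GG79:6 and 20GG95:3. The value of 20GG79:6 lies below the vascular one of 20GG95:3, so the pericyte-like and vascular ranges overlap. Itga5 was also found in immune-like cells, at 120 CPM in 19CB27:3 (20 cells) and 444 CPM in 20GG79:6 (5 cells).

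Itga8 (chromosome 2, 12106632 to 12301922, minus strand), whose product binds nephronectin and other ligands with an RGD sequence, was a subunit of smooth muscle in these data. Vascular smooth muscle-like cells had 120 and 194 CPM and visceral smooth muscle-like cells 189 and 97.6 CPM in 20GG79:1 and 20GG95:3, so each class was the higher in 1 of the 2 mice. Pericyte-like cells had 63.5, 40.5 and 33.0 CPM, under all 4 smooth muscle values. Fibroblast-like cells had 0.615 to 11.9 CPM. In blood endothelium-like, lymphatic endothelium-like, glia-like and immune-like sums Itga8 did not exceed 0.790 CPM, and in epithelium-like sums it reached 3.62 CPM.

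Itga9 (chromosome 9, 118606690 to 118901003, plus strand) binds tenascin-C and EMILIN1 and is known for its part in lymphatic valves. Immune-like cells had 160 CPM in 19CB27:3 (20 cells) and 517 CPM in 20GG79:6 (5 cells). Lymphatic endothelium-like cells had 182 CPM in the PDGFRbGFP mouse of 199 cells and 451, 229 and 63.4 CPM in 18CB109:10, 18CB39:3 and 19CB27:3. Visceral smooth muscle-like cells had 184 and 197 CPM, inside the lymphatic range. Vascular smooth muscle-like cells had 49.3 and 41.6 CPM and fibroblast-like cells 25.6 to 82.4 CPM. Blood endothelium-like cells had 1.40 to 22.5 CPM, below every lymphatic value.

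Itgav (chromosome 2, 83724397 to 83806916, plus strand) binds vitronectin and other RGD ligands and pairs with several beta subunits. Immune-like cells had 126 and 398 CPM, the latter in 5 cells of 20GG79:6. Glia-like cells had 248 and 106 CPM, visceral smooth muscle-like cells 103 and 79.6 CPM and fibroblast-like cells 42.6 to 110 CPM. Each of these classes overlapped lymphatic endothelium-like cells, which had 17.4 to 166 CPM, so no class stood apart. Vascular smooth muscle-like cells had 38.7 and 22.5 CPM and blood endothelium-like cells 5.49 to 26 CPM. Pericyte-like cells of 20GG95:3 had 128 CPM against 13.6 and 11.3 CPM in 20GG79:1 and 20GG79:6.

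Itgb1 (chromosome 8, 128685654 to 128733200, plus strand), the shared beta subunit, was found in all 9 classes. Its mean was 1683 ± 402 CPM (SD, n = 2) in visceral smooth muscle-like, 1251 ± 251 CPM (n = 2) in vascular smooth muscle-like, 1124 ± 303 CPM (n = 3) in pericyte-like and 858 ± 232 CPM (n = 3) in fibroblast-like cells. The ranges over mice of neighbours in this order overlapped. Epithelium-like cells were lowest, at 341 ± 99.6 CPM (n = 5). After thinning, between 84.7% of blood endothelium-like and 100% of vascular smooth muscle-like cells had an Itgb1 count.

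To compare the subunits with each other, levels were divided by the length of each gene's merged exons. Of the 12 alpha subunit genes whose products pair with Itgb1, Itga7 held the largest share of the summed CPM per kb in every vascular smooth muscle-like and pericyte-like sum, from 47.5% in the pericyte-like cells of 20GG95:3 to 77.1% in those of 20GG79:6. Itga5 held the largest share in visceral smooth muscle-like cells, 35.7% in 20GG79:1 and 50.9% in 20GG95:3, where Itga7 held 4.48% and 6.51%. The leading subunit thus differed between the 2 smooth muscle classes in both females. In blood endothelium-like cells Itga5 led in 4 of 5 mice with 41.7 to 65.4%, and Itga6, a laminin-binding subunit outside the set, led in 18CB109:10 with 43.1%. In fibroblast-like cells the lead was shared by Itga5, with 44.7% in 20GG79:1, and the collagen receptor Itga11, with 49.3% in 20GG79:6 and 62.3% in 19CB38:5. Lymphatic endothelium-like cells had no common leader: Itga9 led in the PDGFRbGFP mouse of 199 cells (36.5%) and 18CB109:10 (49.7%), Itga6 in 18CB39:3 (32.2%) and Itga5 in 19CB27:3 (45.8%). Per kb, Bcam at 636 ± 147 and Mcam at 470 ± 183 CPM per kb (SD, n = 2) exceeded Itgb1 at 306 ± 61.6 CPM per kb by their means in vascular smooth muscle-like cells, whereas in visceral smooth muscle-like cells Itgb1 at 412 ± 98.6 CPM per kb exceeded Mcam at 133 ± 67.4 and Bcam at 30.8 ± 25.6 CPM per kb.

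**Figure D2:**
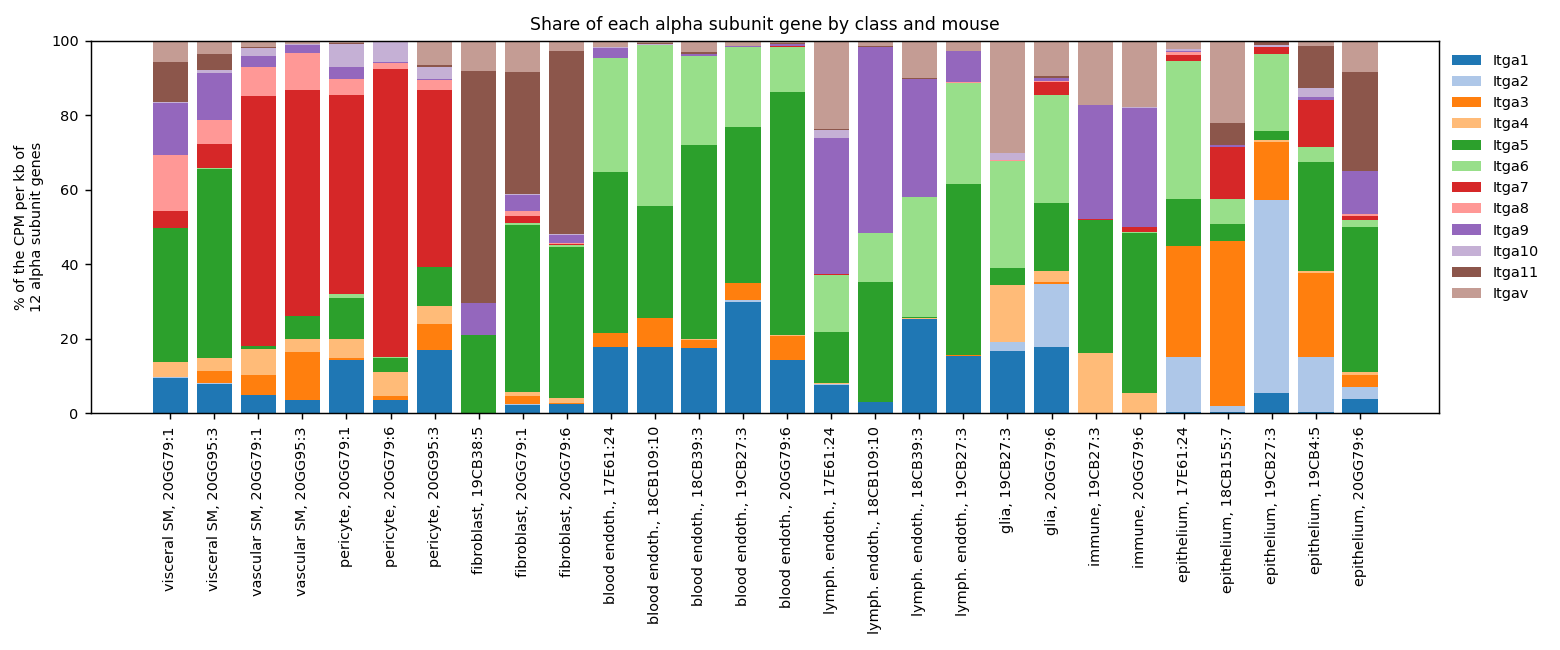
Share (%) of each of 12 alpha subunit genes in their summed CPM per kb of exon, a bar for each cell class and mouse. Itga7 fills 47.5 to 77.1% of the vascular smooth muscle-like and pericyte-like bars, and Itga5 is the largest part of both visceral smooth muscle-like bars.

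Visceral and vascular smooth muscle-like cells were compared to ask how muscle of the gut wall differs from muscle of its vessels in matrix receptors. In both females Bcam, Itga7 and Mcam were lower, and Itga5 and Itga9 higher, in the visceral class. By edgeR's quasi-likelihood test with the mouse as a block and Benjamini-Hochberg adjustment, 5 of the 10 genes were called at an adjusted p of at most 0.05, with 3 lower and 2 higher in visceral cells; of all 14215 genes tested, 2.92% were called lower and 2.57% higher. The median log2 fold change was -0.01 over the 10 genes and 0.26 over all genes tested. The log2 fold change of Bcam was -4.79 (SE 0.36, adjusted p = 1.05e-15, edgeR), that of Itga7 -4.03 (SE 0.36, adjusted p = 1.05e-15, edgeR) and that of Mcam -2.01 (SE 0.30, adjusted p = 2.70e-07, edgeR). Itga5 was higher by 3.83 (SE 0.60, adjusted p = 2.05e-04, edgeR) and Itga9 by 1.93 (SE 0.54, adjusted p = 0.0132, edgeR). The values of the classes do not overlap for these 5 genes, nor for Itga1, Itga3 and Itgav, which were not called. The share of all genes without overlap was not taken. Itga3 had the widest fitted difference, -5.05, but with an SE of 1.67 and an adjusted p of 0.221 (edgeR) it was not called; edgeR without a filter (adjusted p = 2.40e-06), DESeq2 (3.16e-06) and edgeR with unscaled Euclidean neighbours (1.90e-05) called it lower, beside 1.33%, 4.52% and 2.44% of all genes called lower in those fits. Itgav (1.48, SE 0.72), Itga1 (0.56, SE 0.40), Itga8 (-0.31, SE 0.50) and Itgb1 (0.28, SE 0.29) were not called either.

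These calls rest on 2 mice and 1 residual degree of freedom, so the spread comes mainly from the pool of all genes. With a spread shared over all classes and mice, edgeR called 0 of the 10 genes and 0 of all 17641 genes in this contrast. In that fit 4 of the 10 and 1430 of all genes had an unadjusted p under 0.05, and Bcam's adjusted p was 0.188. With 20GG79:1 or 20GG95:3 left out, edgeR also called 0 of the 10, with 1 and 4 at an unadjusted p under 0.05. Without the mouse block 2 were called (Bcam and Itga7). Within the 2 plates of 20GG95:3 the order was the same: visceral cells had Bcam at 150 CPM and vascular cells at 1893 CPM on the smaller plate, with 162 and 2986 CPM on the larger. Itga5 stood at 650 and 60.7 CPM on the smaller and at 384 and 103 CPM on the larger. Without the smaller plate neither Itga5 (adjusted p = 0.102, edgeR) nor Itga9 (0.157) was called, and Itga9 was not called either without the larger plate (0.114) or, in a setting chosen after seeing the data, without 2 doubtful clusters (0.0866). Markers of other classes moved with the contrast: 8 pericyte markers summed to 927 and 1677 CPM in visceral and 6709 and 6125 CPM in vascular cells of 20GG79:1 and 20GG95:3, and 9 fibroblast markers to 9384 and 7197 against 3602 and 3346 CPM. Fibroblast-like sums had Itga5 at 129 to 290 CPM and Itga9 at 25.6 to 82.4 CPM, below both visceral values of each gene, and pericyte-like sums had Bcam at 700 to 1410 CPM, below both vascular values. Pericyte-like Itga7 and Mcam ranges overlap the vascular ones. The part of these markers in the 5 calls was not tested.

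**Figure D3:**
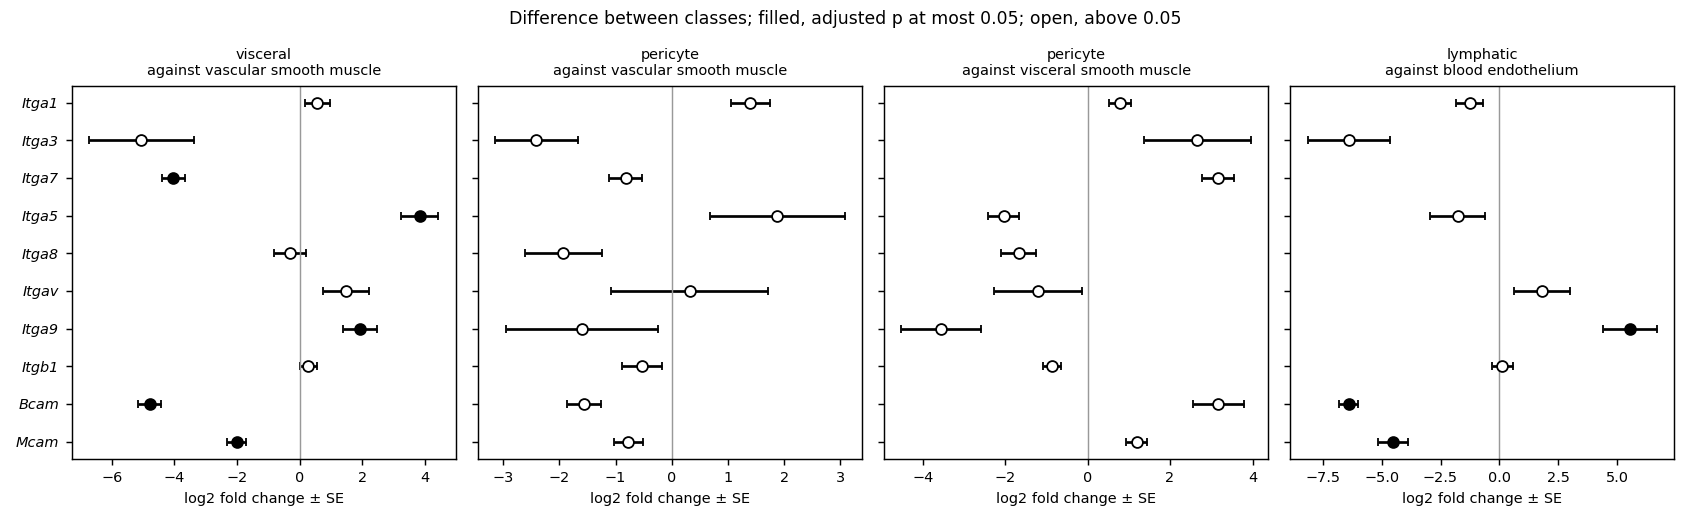
Fitted log2 fold change (x axis) with its SE for each gene in 4 comparisons of classes, with filled points for an adjusted p of at most 0.05 and open points above it. In visceral against vascular smooth muscle-like cells 5 genes are filled, in both pericyte-like comparisons 0, and in lymphatic against blood endothelium-like cells 3, with Bcam and Mcam on the lower side in both comparisons that have filled points.

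The partners of these receptors moved in both directions between visceral and vascular smooth muscle-like cells. Of all 14215 genes tested, 2.57% were called higher and 2.92% lower in visceral cells. Of 18 other integrin subunits 10 could be tested and 2 rose in visceral cells: Itgb3, which pairs with Itgav, had means of 311 CPM against 27.6 CPM (log2 fold change 3.62, SE 0.55), and Itga11 68.6 against 1.73 CPM (6.03, SE 1.31). Of 27 matrix ligands tested, 6 were higher and 5 lower in visceral cells. Fibronectin, the ligand of Itga5 and encoded by Fn1, had means of 975 CPM in visceral and 27.9 CPM in vascular cells. The laminin chains split: Lamb1 had 918 against 16 CPM, and Lamb2 had 278 against 1862 CPM. Vtn, which encodes vitronectin, had 7.61 against 162 CPM, and Thbs1, which encodes thrombospondin-1, 149 against 720 CPM. Of 30 genes of the cytoplasmic adhesion complex tested, 4 were higher and 1 lower. Among the higher ones were Ptk2b, a kinase related to focal adhesion kinase (214 against 2.37 CPM), Tgfb1i1, which encodes the paxillin relative Hic-5 (2156 against 638 CPM), and Tln2, a talin that links integrins to actin (73.7 against 5.63 CPM), and the lower one was Tns2, a tensin (235 against 643 CPM). Of 16 further matrix receptors and integrin partners, the collagen receptor gene Ddr2 (441 against 175 CPM) and the urokinase receptor gene Plaur (30.9 against 0.441 CPM) were higher and Dag1, the dystroglycan laminin receptor (443 against 1071 CPM), and the tetraspanin Cd81 (72.8 against 781 CPM) lower. With the spread shared over all classes none of these partner genes was called by edgeR either, as 0 of all genes were. The fibroblast and pericyte markers given above also differed between these classes, and their part in the partner calls was not tested.

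Pericyte-like cells were compared with both smooth muscle classes in the same 2 females. Against vascular smooth muscle-like cells, Bcam and Itga7 stood lower in both mice without overlap (Bcam means 777 against 2034 CPM, log2 fold change -1.57, SE 0.30), and so did Itga8 (48.2 against 157 CPM). Itga1 (555 against 185 CPM) and Itga5 (102 against 43.1 CPM) stood higher in both mice without overlap. The share of all genes without overlap was not taken. By edgeR's quasi-likelihood test 0 of the 10 genes were called, with a smallest adjusted p of 0.139 for Bcam. Of all 11942 genes, 0.142% were called higher and 0.377% lower. An unadjusted p under 0.05 was found for 6 of the 10 and for 1183 of all genes. DESeq2 called 2 (Bcam and Itga3, both lower), beside 3.4% of all genes higher and 3.89% lower. Against visceral smooth muscle-like cells 0 of 10 were called by edgeR, beside 0.275% of 14935 genes called higher and 0.187% lower. Here 8 of the 10 and 1878 of all genes had an unadjusted p under 0.05. Itga7, with means of 786 against 84.5 CPM, had a log2 fold change of 3.16 (SE 0.39) and an adjusted p of 0.0609 (edgeR), and Bcam one of 3.17 (SE 0.62, adjusted p = 0.167, edgeR). DESeq2 called 5 of the 10 here, with Bcam, Itga7 and Itga3 higher and Itga5 and Itga9 lower, beside 4.59% of all genes higher and 5.61% lower. Fits with a shared spread called 0 of the 10 genes in both comparisons.

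Of the 4 partner lists, matrix ligands alone had calls in the pericyte-like comparisons. Of all genes tested, 0.142% were called higher and 0.377% lower against vascular cells, and 0.275% and 0.187% against visceral cells. Of 26 tested against vascular cells, 4 rose and 0 fell; among them Lamc3 had means of 859 against 14.9 CPM, Lamb1 828.8 against 16 CPM and Col4a1, a basement membrane collagen, 2331 against 501.5 CPM. Against visceral cells 2 of 29 rose, Vtn (1083 against 7.61 CPM) and Lamc3 (859 against 13.8 CPM). With the spread shared over all classes edgeR called 0 of 17641 genes in both comparisons, so none of these ligand calls held, with 973 and 1201 genes at an unadjusted p under 0.05. In the other 3 lists edgeR called 0 genes. These are, in order, other integrin subunits, matrix receptors and partners, and the adhesion complex. Against vascular cells 0 of 7, 7 of 16 and 7 of 29 had an unadjusted p under 0.05 by edgeR, beside 1183 of all 11942 genes. Against visceral cells it was 4 of 12, 3 of 16 and 15 of 29, beside 1878 of all 14935 genes. Blood endothelium markers summed to 153 to 333 CPM in pericyte-like sums, 7.36 to 33.4 CPM in smooth muscle-like sums and 11284 to 18480 CPM in blood endothelium-like sums. The pericyte-like cells of 20GG79:6 entered neither test, since that mouse had no vascular and 2 visceral smooth muscle-like cells. Of its pericyte-like cells, 26 lay in a cluster of their own. The pericyte-like sum of this mouse held immune markers at 278 CPM, against 6.43 and 26.6 CPM in 20GG95:3 and 20GG79:1. Immune-like sums held Itga7 at 0.873 and 21.8 CPM. The same pericyte-like sum held vascular smooth muscle markers at 3221 CPM, against 1609 and 2083 CPM in 20GG95:3 and 20GG79:1. The part of these markers in its Itga7 value of 1887 CPM was not tested. Without that mouse the pericyte-like Itga7 values are 870 and 702 CPM.

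Lymphatic and blood endothelium-like cells were compared in 4 males of 3 lines. Bcam and Mcam were lower in lymphatic cells of all 4 mice, and Itga9 was higher in all 4. Of the 8 genes that passed the filter on low counts, 3 were called by edgeR's quasi-likelihood test with the mouse as a block, 2 lower and 1 higher, beside 1.04% of 9490 genes called lower and 0.991% higher. Bcam had means of 16.3 against 1246 CPM (log2 fold change -6.41, SE 0.41, adjusted p = 4.12e-05, edgeR) and Mcam 36.5 against 537 CPM (-4.52, SE 0.66, adjusted p = 0.00606, edgeR). Itga9 had means of 231 against 7.41 CPM (5.55, SE 1.15, adjusted p = 0.0399, edgeR). The lymphatic and blood ranges do not overlap for these 3 genes, nor for Itga3, which was not called. The share of all genes without overlap was not taken. The 8 pericyte markers summed to 312, 12.9, 288 and 85.9 CPM in the lymphatic sums of the PDGFRbGFP mouse of 199 cells, 18CB109:10, 18CB39:3 and 19CB27:3, above the 40.6, 2.69, 4.05 and 33.5 CPM of their blood sums, with 1 to 6 of the 8 at 0 in each lymphatic sum and Higd1b at 0 in all 4. The 8 immune markers were at 566 against 85.0 CPM in the first of these mice, with Ptprc at 0 in its lymphatic sum. The part of these markers in the 3 calls was not tested. Itga3, at 0.354 against 27.1 CPM, was lower in all 4 mice but was not called (-6.39, SE 1.76, adjusted p = 0.104, edgeR). DESeq2 and edgeR with a shared spread called it lower, beside 12% and 1.75% of all genes called lower in those fits. Itga7 and Itga8 were at or under 1.68 CPM in each of the 8 sums. The median log2 fold change over all genes tested was -0.64.

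The Itga9 call did not hold in every setting. Its adjusted p was 0.191 with at least 10 cells per class, 0.0767 without 18CB109:10, 0.0717 without 18CB39:3 and 0.0827 without 19CB27:3, with log2 fold changes of 4.07 to 5.60 in these fits. Bcam and Mcam were called in all of them. The lymphatic class of 18CB109:10 held 5 cells.

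Partners also differed between the endothelial classes, where 0.991% of all 9490 genes were called higher and 1.04% lower in lymphatic cells. The part of other classes' markers in the partner calls was not tested. Of 16 further matrix receptors and integrin partners, the tetraspanin Cd63 (394 against 22 CPM) and the syndecan Sdc1 (285 against 15 CPM) were higher in lymphatic cells, and Cd81 (212 against 2005 CPM) and Slc3a2, the CD98 heavy chain gene (319 against 944 CPM), lower. Of 25 genes of the adhesion complex, Lims1 and Tns1 were higher and Lims2, the second gene of the PINCH adaptor family, lower (7.85 against 612 CPM, log2 fold change -6.34, SE 0.49, adjusted p = 1.24e-04, edgeR). Means of Lims1 were 549 CPM in lymphatic and 147 CPM in blood cells, so the related pair stood in opposite order in the 2 classes. Of 25 matrix ligands Lama3 alone was called, with 1.66 against 192 CPM. Of 18 other integrin subunits 4 could be tested and 0 were called. By edgeR 2 of the 4 had an unadjusted p under 0.05, as had 1227 of all 9490 genes.

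In 2 comparisons a single mouse held at least 5 cells of both classes, and values are given without a test. In 20GG79:6, 31 blood endothelium-like and 27 pericyte-like cells had Bcam at 1801 and 1410 CPM, Itga7 at 4.26 and 1887 CPM and Itga5 at 569 and 56.7 CPM. Both cell types, which face each other across the capillary wall, held Bcam, and the leading alpha subunit per kb was Itga5 in the former (65.4%) and Itga7 in the latter (77.1%). In 20GG79:1, 129 fibroblast-like cells had Itga5 at 264 CPM against 301 CPM in visceral smooth muscle-like cells, Itga8 at 11.9 against 189 CPM, Itga1 at 52.1 against 299 CPM and Mcam at 32.7 against 285 CPM.

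The visceral smooth muscle-like class was not uniform for Bcam and Itga7. It holds 5 clusters, and the clusters with more desmin (Des), the muscle intermediate filament gene, had more of both receptors. In cluster 19, 72 cells of 20GG95:3 with Des at 3297 CPM, Bcam was at 481 CPM and Itga7 at 219 CPM. In cluster 17, the 20 cells of 20GG95:3 with Des at 2518 CPM had Bcam at 411 and Itga7 at 273 CPM, and the 5 cells of 20GG79:1 with Des at 1421 CPM had 350 and 347 CPM. In clusters 14, 15 and 18, with Des at 356 to 1006 CPM, Bcam was at 6.96 to 61.3 CPM and Itga7 at 35.5 to 78.8 CPM. The Des-rich clusters thus stood above the others for both genes, yet below each vascular smooth muscle-like sum. They also had more Ano1, a chloride channel gene that marks interstitial cells of Cajal, at 848 to 1778 CPM against 17.1 to 258 CPM in the other clusters, and its part in the difference was not tested. The 4 markers of those cells, Ano1 included, summed to 121 and 399 CPM in the visceral and 1570 and 856 CPM in the vascular smooth muscle-like cells of 20GG79:1 and 20GG95:3. No count of Kit, another of these markers, was found in either vascular sum or in the visceral sum of 20GG79:1. Itga9 was highest, at 470 CPM, in the 34 cells of cluster 18 and lowest, at 8.85 CPM, in the 5 cells of cluster 17 from 20GG79:1. Des was among the genes that formed the clusters, so these values are a description; cluster 19 came from 1 mouse, in which the remaining 252 visceral cells had Bcam at 85.9 and Itga7 at 82.7 CPM.

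**Figure D4:**
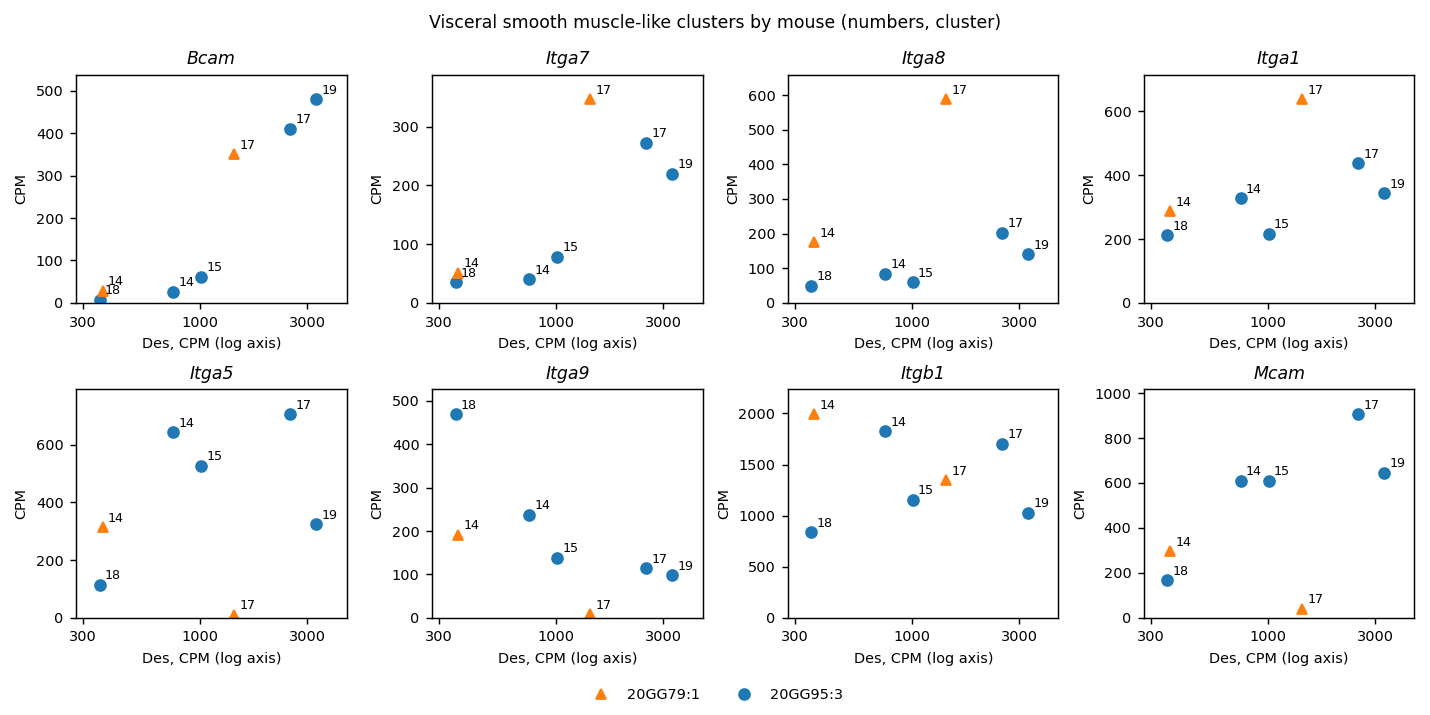
Level of 8 genes (y axis, CPM) against Des (x axis, CPM, log axis) in visceral smooth muscle-like clusters, a point for each cluster and mouse with at least 5 cells. In the 3 points of clusters 17 and 19 Bcam is at 350 CPM or more and Itga7 at 219 CPM or more, and in the others Bcam is at most at 61.3 and Itga7 at most at 78.8 CPM.

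As a description, the genes whose levels ran most like those of each member were sought over 28 sums of 9 classes and 10 mice, among 9422 genes with a mean of at least 50 CPM in a class. Sums of 1 mouse share animals and plates, and no test applies. Itga7 was most like Ptgir, the prostacyclin receptor gene (Pearson r 0.93 on log2(CPM + 1)), Des (0.91) and Pde3a, a phosphodiesterase gene of vascular muscle (0.91). Among the genes close to Itga8 were the potassium channel gene Kcnk3 (0.94) and Cap2 (0.94). Bcam was most like Ttll7 (0.88), Trib2 (0.87) and Fam13c (0.87), and Mcam most like the intermediate filament gene Nes (0.88), Pitpnm2 (0.85) and Afap1l2 (0.85). Itga1 ran with Tspan2 (0.90), Cd200 (0.86) and Galnt18 (0.86), and Itga3 with Atp2a3 (0.81), Trpm4 (0.79) and Frk (0.79). The best match of Itgb1 was Marveld1 (0.84), that of Itgav Nenf (0.80), that of Itga5 Il4ra (0.76) and that of Itga9 Renbp (0.73).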

How the data were processed

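The authors deposited raw counts per Ensembl gene and spike-in, with 1 column per cell; per the submitters' processing notes bcl2fastq, Bowtie, Bowtie2, Subread and featureCounts were used with GRCm38 and mm10, without versions or roles. The sources used here give no filter on cells, removal of duplicates, strand setting or rule for reads in overlapping genes. All 1615 columns were mapped to mice by their labels, 0 were unused, and 0 cells had identical values. Depth was 45388 to 1046988 gene counts in a cell (median 194180), and spike-ins (1.88% of counts) were left out. Symbols, positions and merged exon lengths came from the GRCm38 annotation and promoters from RefSeq (GRCm38.p6).

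The genes, lists and markers were chosen with earlier results of these data known. Cells were clustered in scanpy 1.11.5 on 2089 genes (markers and the 2000 most variable, with counts in at least 10 cells; the 10 genes described were left out), with 20 principal components, 15 neighbours and Leiden resolution 1. The scaling and distance had not been set in advance; 12 settings were compared by how they parted immune, vascular and pericyte markers, without looking at the 10 genes, and values scaled, limited to 10 SD and compared by cosine distance were kept. A cluster took the type with the highest mean marker difference and stayed unnamed where another type had more markers among its 10 leading genes; a relaxed form of this check was added after seeing the 2 clusters it left unnamed. No doublet caller was run, and 130 cells held markers of another class.

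Counts were summed per mouse and class. Sums of mice holding 5 or more cells of each class were tested with edgeR 4.0.16 (R 4.3.3; TMM, filterByExpr, robust quasi-likelihood fit, mouse as a block since the classes come from the same animals). P-values of genes that took no part in the clustering were adjusted together, and 0.05 was the threshold. The SE is the log2 fold change over the square root of F. DESeq2 1.42.0, other scalings, filters, clusterings and left-out mice and plates were alternatives. Named genes were the 10 members, up to 3 called genes per list and direction by smallest adjusted p, and the 3 genes most like each member, of which 1 is not reported here. Shares of cells were taken after thinning to 45000 gene counts, with Clopper-Pearson 95% intervals. A count of 0 is read with a floor of 3 counts.

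The test was checked on simulated counts with 200 changed genes. With dispersions on the fitted trend, visceral against vascular smooth muscle (16268 genes) gave back 1 of 70 genes changed 2-fold, 16 of 70 changed 4-fold and 42 of 60 changed 16-fold, with 2 false calls; lymphatic against blood endothelium (11465 genes) gave back 0 of 70, 3 of 70 and 29 of 60, with 0 false calls. A first simulation, with 1 median dispersion for all genes, gave back 0 in both.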

Additional observations from a re-analysis of the deposited data

Results flagged for a closer look

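In 3 of 30 groups of 4 or 5 mice tested, a value lay far from the others of its group; chance flags about 1 in 20. Itga7 in blood endothelium-like cells was at 4.26 CPM in 20GG79:6 against 0 to 0.677 CPM in the other 4 mice. The pericyte-like cells of that mouse held 1887 CPM, and its blood endothelium-like sum held pericyte markers at 113 CPM against 2.69 to 40.6 CPM in the others; their part was not tested. Itga9 in blood endothelium-like cells was at 22.5 CPM in the PDGFRbGFP mouse of 199 cells against 1.40 to 6.55 CPM in the other 4. Itga9 in epithelium-like cells was at 59.0 CPM in 20GG79:6, a sum of 6 cells, against 0 to 5.35 CPM.

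The 2 unnamed clusters entered no comparison and held counts of all 10 genes. Cluster 7 has 77 cells, 72 of them from 19CB4:5 (PDGFRbGFP). It held Bcam at 1277, Mcam at 605, Itgb1 at 556, Itga1 at 296 and Itga5 at 287 CPM, with Itga9 at 46.8, Itga3 at 38.8, Itgav at 14.2, Itga8 at 3.28 and Itga7 at 1.22 CPM. Blood endothelium-like sums held Bcam at 1090 to 1801, Mcam at 327 to 750, Itga5 at 139 to 569 and Itga9 at 1.40 to 22.5 CPM. Cluster 12 has 70 cells, all of 20GG79:6. It held Itgb1 at 1477, Mcam at 476, Itga5 at 379, Itga9 at 323, Itga1 at 239, Bcam at 163, Itga7 at 118, Itga8 at 108.6, Itgav at 61.0 and Itga3 at 28.6 CPM.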

How the results depend on the processing

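Of the fitted log2 fold changes of called genes, 116 values under the alternatives kept their direction and call, 26 kept the direction and lost the call, and 0 reversed. Part of the 116 come from settings that left the fit as it was. For visceral against vascular cells these were at least 10 cells, resolution 0.5 and the 2 further clusters named. For lymphatic against blood cells they were either plate of 20GG95:3 left out, a mouse outside this comparison, the 2 further clusters named and the 2 doubtful clusters left out. For visceral against vascular smooth muscle-like cells, 5 genes were called, and 2 without the replicate block (no mouse pairing; Bcam and Itga7), 3 without the smaller plate of 20GG95:3, and 0 where all classes shared 1 spread; without either mouse the count was 0 to 0, in fits that assume the lone sum varies like the other classes. With the shared spread edgeR called 0 of 17641 genes in each comparison among the 3 mural classes (973 to 1430 had an unadjusted p under 0.05), and with a mouse left out 0 of 19738 or 20561 (521 to 1041). For pericyte-like against vascular cells, where 0 were called, the count was 1 without a filter (Bcam) and 2 with DESeq2. For pericyte-like against visceral cells, where 0 were called, it was 1 (Itga7) with RLE factors, without a filter, with adjustment over all genes, without cells holding markers of another class and without the larger plate of 20GG95:3, 5 with DESeq2, and 3 (Bcam and Itga7 higher, Itga5 lower) with the clusters of 70 and 77 cells named, a setting chosen after seeing the data. For lymphatic against blood endothelium-like cells, with 3 calls, the count ran from 2 to 4, and 2 to 3 with a mouse left out. RLE factors moved the median log2 fold change of all genes there from -0.64 to -0.45, and the calls were the same 3 genes; DESeq2 called 4.37% of all genes higher and 12% lower there.

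The comparisons with no test as designed gave values under some alternatives. With a shared spread, blood endothelium-like against pericyte-like cells had 1 call (Itga7 lower), beside 0.244% of 17641 genes called lower, from 1 mouse with the spread supplied by other classes, and fibroblast-like against visceral cells 0, with 3 genes at an unadjusted p under 0.05 by edgeR; with the 2 further clusters named the latter had 1 (Mcam lower), beside 0.382% of 15433 genes. With Euclidean neighbours, chosen after seeing the data, the Des-rich visceral cluster had cells of 2 mice and edgeR called Bcam alone, as higher, beside 0.35% of 13427 or 0.441% of 13610 genes; a cluster set against the rest of its class is no independent test. Beyond Mcam, Itga5 and Itga9 in visceral against vascular cells, the mouse block changed no call. With 2 mice per mural comparison and at times 5 cells in a sum, a gene that was not called is not shown to be equal.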
